A study of Mus musculus with 18 samples.

Results

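The genes described here are 9 ligands and receptors of the platelet-derived growth factor (PDGF) and fibroblast growth factor (FGF) families: the receptors Pdgfra, Pdgfrb, Fgfr1 and Fgfr2, the PDGF ligands Pdgfa and Pdgfc, and the FGF ligands Fgf2, Fgf7 and Fgf21. They were taken by symbol from a table of 51499 assembled loci, and all 9 were found. The table covers mouse embryonic fibroblasts (MEFs), which the labels assign to 2 lines, Ago2+/+ and Ago2-/-. AGO2 is the Argonaute that cuts target RNAs in RNA interference, and the study asked how AGO2 affects mRNAs under stress of the endoplasmic reticulum (ER). Tunicamycin blocks N-linked glycosylation, and thapsigargin, which empties the calcium store of the ER, was labelled as used at 500 nM. Cells of both labels were grown for 3 days and then received the solvent DMSO or 1 of these stressors. This gave 6 groups of 3 libraries, 18 in all, and the deposited table holds 1 FPKM value (fragments scaled by transcript length and by the number of mapped fragments) per group and locus. The 3 libraries of a group were pooled by the authors into that value, so no value below carries an SD, no difference could be tested, and the order of groups that lie close together cannot be read as a difference. Depth is unknown, and in bulk RNA fewer cells of a type and less RNA per cell cannot be told apart.

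PDGF and FGF ligands bind receptor tyrosine kinases at the cell surface, and the dimerised receptors signal through RAS and the ERK kinases, phosphoinositide 3-kinase and phospholipase C. PDGFs are the classical mitogens of fibroblasts and mural cells. Most FGFs are held near the cell that makes them by heparan sulphate, whereas FGF21 is an endocrine FGF that needs the co-receptor beta-Klotho and is a known target of ATF4, the transcription factor of the integrated stress response.

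The labels of the groups were not borne out by the genes that check them, and each group is therefore called by its label only. Ago2 itself was lowest in the groups labelled Ago2+/+ tunicamycin (5.75 FPKM) and Ago2-/- DMSO (5.61) and lay between 15.5 and 22.1 in the other 4. The X-inactivation transcript Xist reached 46.6 in Ago2+/+ DMSO and 33.5 in Ago2-/- thapsigargin and stayed at or below 0.0574 elsewhere. The Y-linked gene Ddx3y was listed at 23.3 in Ago2+/+ thapsigargin and 24.7 in Ago2-/- tunicamycin and at 0 in the other groups, and Eif2s3y, Kdm5d and Uty were above 0 in the same 2 groups only. Dicer1 ranged from 17.5 to 32.7. In 4 libraries the labels also conflict on genotype, and these could not be left out of pooled values. Of the 15 pairs of groups, 3 differed at few loci. These pairs were Ago2-/- DMSO with Ago2+/+ tunicamycin, Ago2-/- tunicamycin with Ago2+/+ thapsigargin, and Ago2-/- thapsigargin with Ago2+/+ DMSO, and in each the labels differ in both genotype and treatment. In the pair with the lowest Ago2, Xist stayed at or below 0.0574 and the Y-linked genes were at 0. The 3 pairs thus showed 3 patterns of Ago2, Xist and Y-linked genes, whereas the labels name 2 lines. Every genotype or treatment named below is a label. Its effect cannot be told apart from that of a mixed-up label or of a difference between the cells themselves.

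Among markers of fibroblasts, Vim lay between 952 and 2634 FPKM in all 6 groups. Col1a1 ranged from 5.97 in Ago2-/- DMSO to 651 in Ago2-/- tunicamycin, Col1a2 from 23.7 to 577 and Fn1 from 46.4 to 600, all with their highest value in Ago2-/- tunicamycin. S100a4, in a locus shared with S100a3, was instead highest in Ago2+/+ DMSO (1967, against 330 in Ago2-/- tunicamycin) and Twist1 in Ago2-/- thapsigargin (33.4, against 11.6), while Thy1 was listed at 0 throughout and Lum stayed at or below 0.0138. The summed level of the 8 smooth muscle and mural markers was 2463 in Ago2+/+ thapsigargin and 1845 in Ago2-/- tunicamycin and between 8.52 and 25.4 in the other groups. Acta2 (1644 and 1252), Tagln (648 and 444) and Cnn1 (126 and 105) carried this sum. The other markers of the list did not all follow: Des was highest in Ago2+/+ DMSO (2.95) and Ago2-/- thapsigargin (2.58), Cspg4 was as high in Ago2+/+ DMSO (9.73) as in the pair (9.61 and 9.49), Rgs5 did not exceed 0.21 and Myh11 did not exceed 0.073. None of the 6 endothelial and 6 epithelial markers reached 1 FPKM, and of 6 immune markers 1 did, Cd68, with at most 1.82.

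The promoters of Fgf21 and Fgf7 are shown because the first is the member with a known stress-response control and the second is the member with the widest range of levels. Each is the 250 bases before the RefSeq start of the gene on GRCm38.p6, written 5′ to 3′ on the strand of the gene. Fgf21 lies at chr7:45615491-45615740 (minus strand) and Fgf7 at chr2:126034408-126034657 (plus strand). Capitals mark any match, on either strand, to the motifs searched. The first was TGATGCAA, the joint site of ATF4 and C/EBP proteins. The second was GGGCGG, bound by the Sp1 family. The third was TATAAA, the core of the box that places the start of transcription. The fourth was the AP-1 site, the letters TGA and TCA with 1 free base between them. None of the matches in the members overlapped.
Fgf21: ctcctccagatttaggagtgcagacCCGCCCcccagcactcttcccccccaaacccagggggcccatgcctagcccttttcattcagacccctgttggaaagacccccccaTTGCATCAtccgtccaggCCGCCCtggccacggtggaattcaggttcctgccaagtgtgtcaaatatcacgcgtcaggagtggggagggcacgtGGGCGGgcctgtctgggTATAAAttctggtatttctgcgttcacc
Fgf7: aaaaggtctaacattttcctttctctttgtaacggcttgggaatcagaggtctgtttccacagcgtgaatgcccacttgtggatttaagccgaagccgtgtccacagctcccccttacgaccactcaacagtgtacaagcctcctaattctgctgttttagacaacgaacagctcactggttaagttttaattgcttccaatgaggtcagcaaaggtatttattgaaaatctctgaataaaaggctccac
The Fgf21 promoter held the ATF4 and C/EBP site, as TTGCATCA, from 139 to 132 bases before the start, 3 Sp1 sites and TATAAA from 28 to 23 bases before the start. The Fgf7 promoter held none of these letters. Promoters were searched for 7 of the 9 members, in 8 windows because Pdgfa has 2. Those of Pdgfrb and Fgfr1 were not searched. The ATF4 and C/EBP letters occurred in 0.791% of all 32851 promoter windows of this length and, among the 7 members searched, in Fgf21 alone. TATAAA occurred in 12.4% of all windows and, again, in Fgf21 alone of the 7 members searched. GGGCGG occurred in 32.7% of all windows and in 4 of the 8 member windows, those of Fgf2, Fgf21 and Pdgfa. The AP-1 letters occurred in 6.75% of all windows and in none of the 8 member windows. These matches describe letters in a window and not bound sites.

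Of the receptors, Pdgfra and Pdgfrb varied widely between groups and Fgfr1 little, while Fgfr2 was measured only together with a neighbouring gene. Pdgfra (chromosome 5, 75152292 to 75198215, plus strand, GRCm38), the receptor that binds PDGF-A and PDGF-C, had 2.62 FPKM under DMSO, 0.488 under tunicamycin and 6.25 under thapsigargin with the label Ago2+/+, and 0.903, 8.72 and 8.28 under the same treatments with the label Ago2-/-. It was thus low in the pair of groups where Ago2 was lowest and highest in both stressed groups labelled Ago2-/-. Pdgfrb (chromosome 18, 61045150 to 61085061, plus strand), the receptor for PDGF-B and a marker of mural cells, had 0.540 FPKM under DMSO, 9.13 under tunicamycin and 13.9 under thapsigargin with the label Ago2+/+, and 7.84, 17.9 and 0.799 with the label Ago2-/-. The 2 groups under 1 FPKM are those in which Xist was high. The highest level of Pdgfra was 17.9 times its lowest and that of Pdgfrb 33.2 times its lowest.

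Fgfr1 (chromosome 8, 25513654 to 25575718, plus strand), the main FGF receptor of mesenchymal cells, ran from 29.3 FPKM in Ago2-/- thapsigargin and 29.7 in Ago2+/+ DMSO through 33.8 in Ago2+/+ thapsigargin, 36.0 in Ago2-/- tunicamycin and 36.9 in Ago2-/- DMSO to 43.2 in Ago2+/+ tunicamycin. The Fgfr2 locus, which in the table also holds the transcriptional co-repressor gene Ctbp2, ran from 42.0 in Ago2+/+ DMSO through 43.8 in Ago2+/+ tunicamycin, 45.0 in Ago2-/- DMSO, 50.0 in Ago2+/+ thapsigargin and 50.9 in Ago2-/- tunicamycin to 51.9 in Ago2-/- thapsigargin. Its value is that of the merged locus (Fgfr2 is annotated on chromosome 7 from 130162451 to 133123350, minus strand, across Ctbp2), and the part contributed by Fgfr2 cannot be told apart. The highest level exceeded the lowest 1.47 times at Fgfr1 and 1.24 times at the Fgfr2 locus. Of the 3 receptors measured without another gene in their locus, Fgfr1 had the highest level in every group: in Ago2+/+ DMSO it stood at 29.7 FPKM beside 2.62 for Pdgfra and 0.540 for Pdgfrb, and in Ago2-/- tunicamycin at 36.0 beside 8.72 and 17.9.

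The PDGF ligands were expressed in every group. Pdgfa (chromosome 5, 138976014 to 138997370, minus strand), whose product binds PDGF receptor alpha, had 19.1 FPKM under DMSO, 18.0 under tunicamycin and 11.9 under thapsigargin with the label Ago2+/+, and 24.7, 10.4 and 14.1 with the label Ago2-/-. Pdgfc (chromosome 3, 81036416 to 81214040, plus strand), a ligand that is secreted inactive and needs its CUB domain cut off, had 21.9, 30.5 and 11.7 FPKM in the Ago2+/+ groups, in the same order of treatments, and 32.7, 8.75 and 22.3 in the Ago2-/- groups. Both were highest in Ago2-/- DMSO and lowest in Ago2-/- tunicamycin, the group in which their receptor Pdgfra was highest, as were Pdgfrb and Fgf21.

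Fgf2 (chromosome 3, 37348346 to 37410108, plus strand), the basic FGF that lacks a classical signal peptide, shares its locus in the table with the chaperonin-like gene Bbs12, and the parts of both cannot be told apart. The locus had 8.93 FPKM under DMSO, 10.9 under tunicamycin and 4.87 under thapsigargin with the label Ago2+/+, and 11.5, 4.65 and 9.52 with the label Ago2-/-. Its 6 groups stood in the same order from low to high as those of Pdgfc.

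Fgf7 (chromosome 2, 126034658 to 126091185, plus strand), the keratinocyte growth factor that mesenchymal cells make for epithelia, had the widest range of the members. It had 0.258 FPKM under DMSO, 77.5 under tunicamycin and 35.6 under thapsigargin with the label Ago2+/+, and 90.99, 31.6 and 0.397 with the label Ago2-/-. It was thus under 1 FPKM in 2 groups, at 31.6 and 35.6 in 2 others and highest in the last 2, and these are the 3 pairs of groups that differed at few loci. The highest level was 352 times the lowest. Fgf21 (chromosome 7, 45613886 to 45615490, minus strand) had 2.85 FPKM under DMSO, 1.58 under tunicamycin and 5.501 under thapsigargin with the label Ago2+/+, and 1.62, 9.83 and 8.46 with the label Ago2-/-. It was higher in both stressed groups labelled Ago2-/- than in any other group, and in the groups labelled Ago2+/+ it lay lower under tunicamycin than under DMSO.

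**Figure D1:**
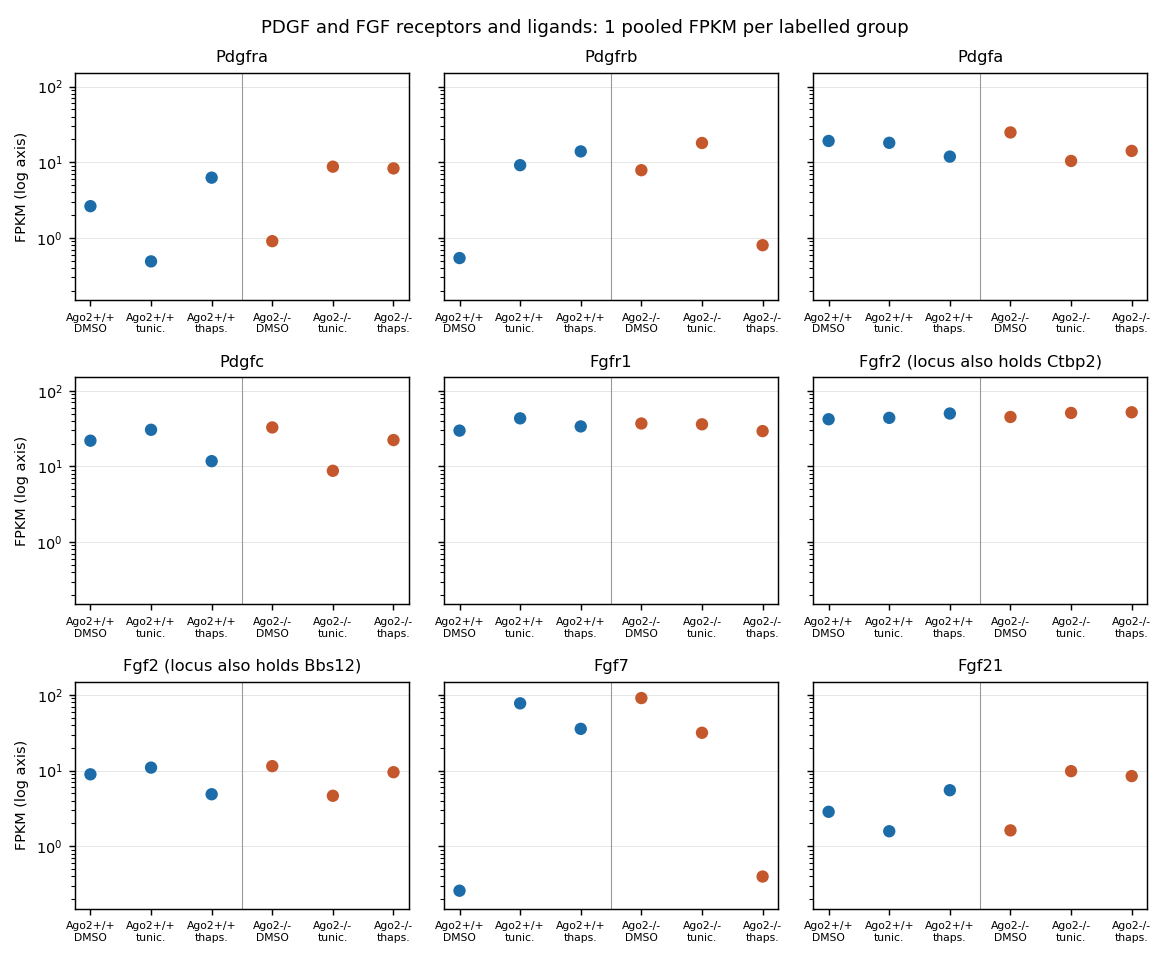
Each panel is 1 gene, with its FPKM (log axis) in the 6 labelled groups, blue for Ago2+/+ and orange for Ago2-/-; each point is the authors' pooled value of 3 libraries, so there are no error bars. Fgf7 spans 0.258 to 90.99 FPKM, while Fgfr1 stays between 29.3 and 43.2.

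No source used here gives the strand of the libraries, so reads of genes on the other strand of a member cannot be told apart. Fam227b, which spans Fgf7 on the other strand, was at most at 0.0302 FPKM. Nudt6, the antisense partner of Fgf2, was at 3.19 to 6.08, and 6330403L08Rik, opposite Pdgfa, at 0.745 to 2.14. Gm16000, opposite Pdgfc, did not exceed 0.194.

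Over the 6 groups, 4 of the 9 members (Fgf7, Pdgfrb, Pdgfra and Fgf21) had a range of at least 4-fold on the scale of log2(FPKM + 0.1), beside 20.9% of all 13032 loci that reached 1 FPKM in a group. The median range of the members was 1.89 on this log2 scale, and that of all those loci 0.86. The members, like the gene lists below, were chosen with earlier results of these data known. These figures therefore describe them and carry no test.

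Tunicamycin was compared with DMSO to ask which of these genes move under block of glycosylation. A locus was counted as higher or lower when log2(FPKM + 0.1) differed by at least 1 (2-fold) between groups, with at least 1 FPKM in at least 1 of them; this is a rule of size and not a test, and all 9 members met the level in every comparison. In the groups labelled Ago2+/+, Fgf7 was higher under tunicamycin by 7.76 on the log2 scale and Pdgfrb by 3.85, Pdgfra was lower (log2 difference -2.21), and the other 6 members lay within 2-fold, from -0.82 for Fgf21 to 0.54 for Fgfr1. The counts of 2 higher and 1 lower member stand beside 10.7% and 9.31% of all 12257 loci, and the members' median difference of 0.29 beside 0.01 for all loci. In the groups labelled Ago2-/-, 3 members were higher: Pdgfra by 3.14, Fgf21 by 2.53 and Pdgfrb by 1.18. The 4 ligands Pdgfc (-1.89), Fgf7 (-1.52), Fgf2 with Bbs12 (-1.28) and Pdgfa (-1.24) were lower. The background was 13.2% of 12399 loci higher and 11.7% lower, and the median of the members was -0.04. Fgfr1 and the Fgfr2 locus stayed within 2-fold in both.

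Thapsigargin was compared with DMSO for the same question under loss of ER calcium. In the groups labelled Ago2+/+, Fgf7 was higher by 6.64 on the log2 scale, Pdgfrb by 4.45 and Pdgfra by 1.22, and no member was lower by 2-fold; 10.3% of 12236 loci were higher and 8.71% lower. Fgf21 (0.92), Pdgfc (-0.89) and Fgf2 with Bbs12 (-0.86) lay just inside 2-fold. The members' median was 0.25. In the groups labelled Ago2-/-, Pdgfra was higher by 3.06 and Fgf21 by 2.31, while Fgf7 (-7.52) and Pdgfrb (-3.14) were lower, beside 9.43% of 12274 loci higher and 10.9% lower, with a median of -0.33 for the members. Pdgfa lay within 2-fold, with log2 differences of -0.68 and -0.81 in the groups labelled Ago2+/+ and Ago2-/-.

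A stress change past 2-fold in opposite directions in both labels was seen for 2 of the 9 members under tunicamycin, Pdgfra and Fgf7, beside 10.1% of 11795 loci, and for 2 under thapsigargin, Pdgfrb and Fgf7, beside 7.15% of 11677 loci. Both stressors of a genotype share its DMSO group, so their values for a member are given side by side only. With the DMSO group of the other label as reference, the difference of Fgf7 changed sign in all 4 comparisons: it became -0.23 for tunicamycin and -1.35 for thapsigargin in the groups labelled Ago2+/+, and 6.47 for tunicamycin in those labelled Ago2-/-. For thapsigargin in those labelled Ago2-/- it became 0.47, and that of Pdgfrb 0.49, but both genes were under 1 FPKM in both of the groups then compared. With that reference, none of the members differed by 2-fold between Ago2+/+ tunicamycin and DMSO, beside 1.83% of all loci. Where at least 1 FPKM was asked of both groups, Fgf7 and Pdgfrb left the comparisons with Ago2+/+ DMSO and with Ago2-/- thapsigargin, because they were under 1 FPKM there, and Pdgfra left those with Ago2+/+ tunicamycin and Ago2-/- DMSO for the same reason.

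The groups labelled Ago2-/- were compared with those labelled Ago2+/+ under each treatment to ask what the labelled loss of AGO2 changes. Under DMSO, Fgf7 was higher in the group labelled Ago2-/- by 7.99 on the log2 scale and Pdgfrb by 3.63, and Pdgfra was lower (-1.44, and -0.93 with 1 added to each FPKM in place of 0.1). The background was 10.6% of 12246 loci higher and 9.42% lower. Under tunicamycin, Pdgfra (3.91) and Fgf21 (2.57) were higher and Pdgfc (-1.79), Fgf7 (-1.29) and Fgf2 with Bbs12 (-1.22) lower, beside 13.1% of 12405 loci higher and 11.2% lower. Under thapsigargin no member was higher and Fgf7 (-6.17) and Pdgfrb (-3.96) were lower, beside 8.64% of 12251 loci higher and 10.9% lower. The medians of the members were 0.36, -0.26 and 0.25 under the 3 treatments, and the medians of all loci lay between -0.03 and 0.01. No member was past 2-fold in the same direction under all 3 treatments. The share of all loci that were was not computed, so this cannot be read as a trait of the members.

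**Figure D2:**
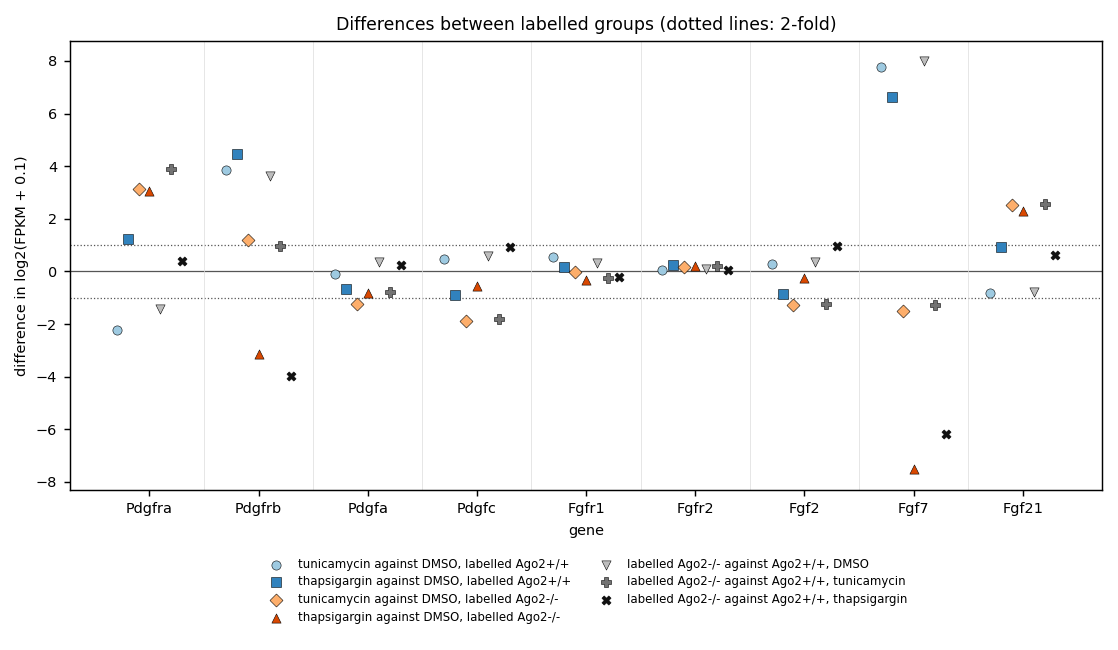
Differences of each gene in log2(FPKM + 0.1) in the 7 comparisons, where each symbol is 1 comparison of 2 pooled group values and the dotted lines mark 2-fold. Fgf7 runs from -7.52 to 7.99, and all symbols of Fgfr1 and of the Fgfr2 locus lie between the dotted lines.

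In the pair Ago2-/- DMSO with Ago2+/+ tunicamycin, none of the 9 members differed by 2-fold, beside 1.83% of 11731 loci. Fgf7 was at 90.99 and 77.5 FPKM in this pair, and Fgf21 at 1.62 and 1.58. Ago2-/- tunicamycin with Ago2+/+ thapsigargin likewise showed none of the members past 2-fold and 2.19% of 11826 loci. The third pair, Ago2-/- thapsigargin with Ago2+/+ DMSO, showed 4.11% of 11803 loci past 2-fold and 2 members: Pdgfra was at 8.28 and 2.62 FPKM, a log2 difference of 1.62, and Fgf21 at 8.46 and 2.85, a log2 difference of 1.54. Fgf7 (0.397 and 0.258) and Pdgfrb (0.799 and 0.540) were low in both of these groups. In the other 12 pairs, 19.1% to 24.9% of loci and 2 to 7 members were past 2-fold.

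Across the 6 groups, the members with like patterns were Pdgfc and Fgf2 with Bbs12 (Pearson's r of log2(FPKM + 0.1) = 0.99), Pdgfra and Fgf21 (0.97), Pdgfrb and Fgf7 (0.93), and Pdgfa and Pdgfc (0.91). Pdgfra and its ligand Pdgfa ran in opposite directions (-0.81). So did members that are not receptor and ligand, such as Pdgfa and Fgf21 (-0.88) and Pdgfc and Fgf21 (-0.80). These coefficients rest on 6 pooled values that lie in 3 close pairs, so they describe these groups and carry no test. Among 5426 loci with a range of at least 2-fold, the loci most like Pdgfra were Hhipl1 (r = 0.995), Bnc2 and Gm16439, and those most like Fgf21 were Myo1d (0.983), Gm1673 and Crip1. Pdgfrb was nearest to Snhg18 (0.999), Zfp862-ps and the transcription factor gene Foxc1. Fgf7 was nearest to Rps2 (0.9997), to Elmo1 and to Zfp213. Rps2, a ribosomal protein gene, ran from 124 to 2270 FPKM. Genes of this kind have near-identical copies between which the counting could have split reads, which was not tested. Pdgfc was nearest to Gm12603, the mitochondrial chaperonin gene Hspd1 and the importin gene Ipo7, Fgf2 to 4930581F22Rik, Wnt7b and Gm29397, and Pdgfa to Gm28529, Gm5550 and Nop10. As many as 62 loci reached r of 0.99 with Fgf7 and 51 with Fgf2, and none with Fgf21.

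Fgf21 was set beside Atf4 and 8 of the known targets of the ATF4 pathway. None of these 9 genes differed by 2-fold between a stressor and DMSO of the same label, apart from Gdf15, a stress-induced cytokine. Gdf15 was higher under thapsigargin in the groups labelled Ago2+/+ and under tunicamycin in those labelled Ago2-/-. For the label Ago2+/+, 10.7% of all loci were higher and 9.31% lower under tunicamycin, and 10.3% and 8.71% under thapsigargin. The shares for Ago2-/- were 13.2% and 11.7% under tunicamycin and 9.43% and 10.9% under thapsigargin. Gdf15 had 0.738, 0.0677 and 5.67 FPKM under DMSO, tunicamycin and thapsigargin with the label Ago2+/+ and 0.0801, 7.41 and 0.870 with the label Ago2-/-, so in the other 2 of these comparisons it did not reach 1 FPKM and was not counted. Atf4 lay between 394 and 583 FPKM, the asparagine synthetase gene Asns between 150 and 285, Atf5 between 57.2 and 112 and the glutathione-degrading Chac1 between 63.5 and 95.6. Fgf21 was most like Ppp1r15a (r = 0.87) and Gdf15 (0.85), had r = -0.01 with Atf4 and 0.12 with Ddit3, and was least like Trib3 (-0.84). The 9 genes had a median range of 0.56 on the log2 scale, against 2.57 for Fgf21. The ER stress gene Ddit3 was between 237 and 349 FPKM in all 6 groups, DMSO included.

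**Figure D3:**
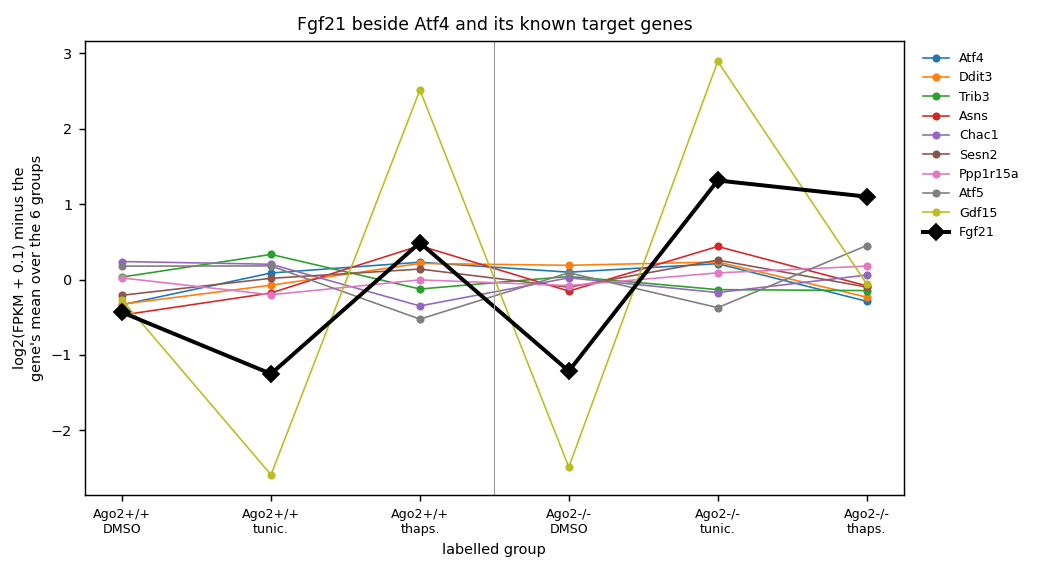
Level of Fgf21 (black diamonds) and of Atf4 and 8 known targets (coloured points) in the 6 labelled groups, as log2(FPKM + 0.1) minus the mean of the gene over the groups. Apart from Gdf15, the coloured lines stay near 0, with ranges of at most 0.98, while Fgf21 ranges over 2.57.

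The other genes of both families that were followed were mostly silent. Of 4 other receptor genes, 3 reached 1 FPKM: Fgfrl1, a receptor that lacks the kinase domain, at 6.43 to 13.0, Fgfr3 at 0.308 to 3.43 and Pdgfrl at 0.0145 to 1.20. Of 21 other genes named as a PDGF or an FGF, 4 reached 1 FPKM and none exceeded 2.67. These were Pdgfb, the ligand of PDGF receptor beta, at 0.905 to 2.65, Pdgfd at 0.116 to 2.67, Fgf11 at 0.280 to 1.47 and Fgf10 at 0 to 1.18. Pdgfd and Pdgfrb were both lowest in the groups with high Xist. The level of Pdgfa in every group was above that of the highest of these 21 genes.

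Of 20 genes for co-receptors and ligand-binding proteins, 17 reached 1 FPKM and 12 of these had a range of at least 4-fold. Their median range was 3.04 on the log2 scale, beside 1.89 for the members and 0.86 for all loci that reached 1 FPKM. The co-receptor of FGF21, Klb, did not exceed 0.0624 FPKM, and its relative Kl did not exceed 0.0037. Fgfbp1, which releases FGFs from the matrix, was at 41.6 FPKM in Ago2+/+ tunicamycin and 41.9 in Ago2-/- DMSO and at most at 1.37 elsewhere. The glypican gene Gpc4 was listed at 0 in these 2 groups and reached 35.8 in Ago2+/+ thapsigargin and 41.5 in Ago2-/- tunicamycin. Sulf1, a sulphatase that trims heparan sulphate, reached 7.02 and 7.88 in the latter pair and at most 0.514 elsewhere, and the syndecan gene Sdc3 17.3 and 14.1 against at most 2.46. The numbers of these genes higher and lower by 2-fold under tunicamycin were 7 and 3 of 16 in the groups labelled Ago2+/+ and 6 and 5 of 17 in those labelled Ago2-/-, and under thapsigargin 8 and 4 of 17 and 2 and 7 of 16. Of all loci, 10.7% were higher and 9.31% lower in the first of these comparisons, 13.2% and 11.7% in the second, 10.3% and 8.71% in the third and 9.43% and 10.9% in the fourth, and 20.9% had a range of at least 4-fold.

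Between the receptors and ERK, 23 adaptor and kinase genes were followed. Of these, 22 reached 1 FPKM and none had a range of at least 4-fold, and their median range was 0.65 on the log2 scale. The widest were the docking protein gene Gab1, at 2.34 to 7.21 FPKM, the exchange factor genes Sos2, at 7.31 to 15.7, and Sos1, at 9.39 to 19.4, and the kinase gene Braf, at 8.78 to 18.3. Under tunicamycin 2 of the 22 were higher by 2-fold and none lower in the groups labelled Ago2+/+, and 2 were higher and 1 lower in those labelled Ago2-/-. With thapsigargin none passed 2-fold for the label Ago2+/+ and 1 was higher for Ago2-/-. Of all loci, 10.7% were higher and 9.31% lower under tunicamycin for the label Ago2+/+, and 13.2% and 11.7% for Ago2-/-. The shares under thapsigargin were 10.3% and 8.71% for Ago2+/+ and 9.43% and 10.9% for Ago2-/-. A range of at least 4-fold was seen in 20.9% of all loci that reached 1 FPKM.

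Of 18 ERK feedback and target genes, all reached 1 FPKM and 10 had a range of at least 4-fold, with a median range of 2.28. The phosphatase gene Dusp4, which is induced by ERK and dampens it, was at 37.0 FPKM in Ago2+/+ tunicamycin and 40.2 in Ago2-/- DMSO, the pair with the highest Fgf7, and at 1.35 to 5.04 elsewhere. Cyclin D1 (Ccnd1) was at 207 and 193 in this pair and at 13.4 and 10.6 in Ago2+/+ thapsigargin and Ago2-/- tunicamycin. Etv1 was highest in Ago2-/- thapsigargin at 7.24, and Spry1, an inhibitor of receptor tyrosine kinase signalling, was highest in Ago2-/- tunicamycin at 4.32 and lowest in Ago2+/+ DMSO at 0.278. Under tunicamycin, 7 of 18 were higher and 2 lower in the groups labelled Ago2+/+ and 0 of 17 higher and 11 lower in those labelled Ago2-/-. Under thapsigargin the counts were 3 higher and 8 lower of 18, and 1 higher and 5 lower of 18. The shares of all loci in these 4 comparisons were 10.7% higher and 9.31% lower, 13.2% and 11.7%, 10.3% and 8.71%, and 9.43% and 10.9%, and 20.9% of loci had a range of at least 4-fold. For Ago2+/+ and Ago2-/- in turn, the list had median differences of 0.43 and -1.15 with tunicamycin and of -0.68 and -0.62 with thapsigargin, beside medians of all loci between -0.02 and 0.01. The summed level of the list was 861 in Ago2-/- DMSO, where Pdgfa, Pdgfc, Fgf2 and Fgf7 were at their highest, and 208 in Ago2-/- tunicamycin, where Pdgfra, Pdgfrb and Fgf21 were. Abundant genes carried much of this sum: Ccnd1 (193 and 10.6 in these groups), Fosl1 (190 and 24.3) and Ier3 (138 and 30.5). Spry1 went the other way (2.66 and 4.32). The part of the smooth muscle markers in these levels was not tested.

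**Figure D4:**
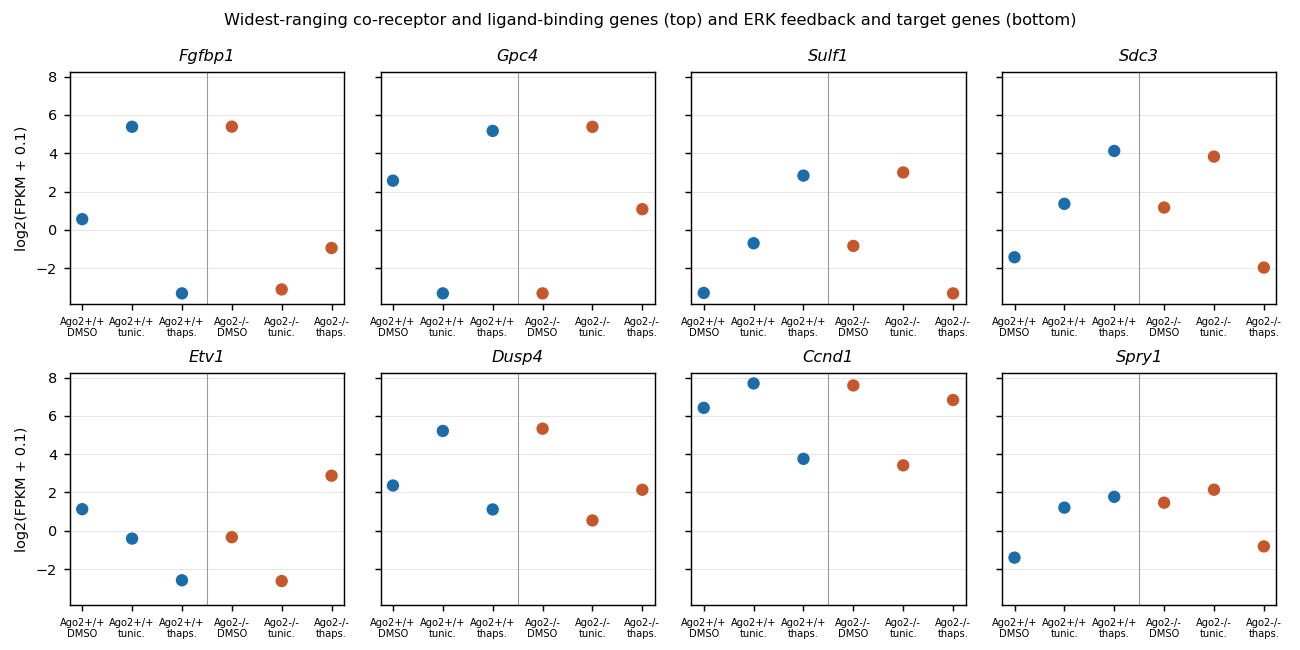
Levels as log2(FPKM + 0.1) in the 6 labelled groups (blue Ago2+/+, orange Ago2-/-) of the 4 genes with the widest range in each of 2 lists, co-receptors and ligand-binding proteins above and ERK feedback and target genes below. Dusp4 and Fgfbp1 are highest in Ago2+/+ tunicamycin and Ago2-/- DMSO, and Gpc4 is listed at 0 there.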

How the data were processed

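RNA sequencing of 18 libraries in 6 groups was used. Per the submitters' processing notes and the methods of the study, the authors checked reads with FastQC 0.11.7, aligned them with HISAT2 2.1.0 to GRCm38 with Ensembl release 91, assembled transcripts with StringTie 1.3.4d and quantified them with Cuffdiff 2.2.1. No source used here gives the library scaling or the strandedness. The deposited FPKM is 1 value per group and locus, pooled by the authors over 3 libraries. The table also holds the authors' fold changes, test statistics, p-values, q-values and calls, which were not used.

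Each of 772485 rows sets 2 groups side by side. Ago2+/+ thapsigargin was read where it stood second and the other groups where they stood first. In the entries read, each locus had 1 value per group. Whole reads could not be recovered from low values: at the best step, 25.0% to 39.3% of them lay within 0.1 of a multiple, against 20% without steps. Depth is therefore unknown, and the number of libraries limits the precision. Differences were taken on log2(FPKM + 0.1) with Python 3.11.15 and pandas 2.3.3 over loci with at least 1 FPKM in at least 1 of both groups, and the code was tested on simulated data. Libraries were grouped by title, in which Ago2+/+ is written DCR1. Gene positions are those of the GENCODE annotation of GRCm38.

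The members and gene lists were chosen with earlier results of these data known. Named were all members, the label checks, up to 4 genes per list with the widest range among those reaching 1 FPKM, and the 3 loci most like each member with a range of at least 2-fold. Markers of cell types, Klb, Kl, Ddit3, Ppp1r15a, Trib3 and the antisense genes were named outside this rule after their values were seen. Atf4, Fosl1 and Ier3 were named outside it as well. Alternatives were other pseudocounts, filters, centring, folds and references. A gene of the adaptor and kinase list is not reported here.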

Additional observations from a re-analysis of the deposited data

Results flagged for a closer look

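In 4 cases the change of a member under a stressor went past 2-fold in opposite directions in the 2 labelled genotypes. The values are log2 changes against DMSO of the same label, with the change in the groups labelled Ago2-/- minus that in the groups labelled Ago2+/+. For Pdgfra under tunicamycin this difference was 5.35 (3.14 against -2.21). For Fgf7 it was -9.28 under tunicamycin (-1.52 against 7.76) and -14.16 under thapsigargin (-7.52 against 6.64). For Pdgfrb under thapsigargin it was -7.59 (-3.14 against 4.45). Of all loci that reached 1 FPKM in both comparisons, 10.1% did the same under tunicamycin and 7.15% under thapsigargin, beside 2 of 9 members each. Each group is 1 pooled value, so these differences were not tested, and Ago2 and the sex-linked genes went against the labels in the same groups.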

How the results depend on the processing

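No paired analysis was possible because the table holds 1 pooled value per group and no replicate columns, and for the same reason no library could be left out. Of 59 values of counts under alternatives, 47 stayed within 1.5 times the count reported and 12 did not; of 459 differences of single members, 425 kept their side of 2-fold, 15 fell inside it, 16 passed it and 3 past it changed sign. Of the 425, 7 changed sign within 2-fold, all with the other DMSO group as reference (Pdgfc and Fgf2 with both stressors, Fgfr1 with both and Fgfr2 with tunicamycin). With 1 FPKM asked of both groups, the members past 2-fold numbered 0 for tunicamycin in Ago2+/+, 1 for thapsigargin in Ago2+/+ and 1 in Ago2-/-, and 0 for genotype under DMSO and 0 under thapsigargin, since fewer members were compared. With the other DMSO group as reference they numbered 0 for tunicamycin and 6 for thapsigargin in Ago2+/+, and 2 for thapsigargin in Ago2-/-. Of all loci, 1.83%, 23.1% and 4.11% were past 2-fold in these comparisons, in turn. With this reference Fgf7 changed sign, to -0.23 for tunicamycin and -1.35 for thapsigargin in Ago2+/+ and 6.47 for tunicamycin in Ago2-/-. At 1.5-fold the members past the threshold numbered 7 for thapsigargin in Ago2+/+ and 5 for genotype under thapsigargin. At 4-fold they numbered 2 for tunicamycin in Ago2-/- and 2 for genotype under tunicamycin. The shares of all loci at these folds, and with 1 FPKM asked of both groups, were not computed. Centring on the median of all loci, a pseudocount of 1 FPKM or none, and no filter moved none of the counts by over 1.5 times. Depth is unknown, so how firmly values under 1 FPKM are measured is unknown as well.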
